A study of Homo sapiens with 24 samples.

Results

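The ATF4 and CHOP axis of the integrated stress response was followed in 686Tu cells through 10 genes: ATF4, ATF3, DDIT3, TRIB3, CHAC1, DDIT4, SESN2, CEBPB, ATF5 and PPP1R15A. They were chosen by name, and each symbol matched 1 of the 60617 genes in the table of raw counts. 686Tu was derived from a squamous carcinoma of the head and neck. RNA-seq was done on 4 groups of 6 libraries: untreated cells (NT), cells given EGCG (epigallocatechin gallate, a catechin of green tea) at 40 µM, cells given resveratrol (a stilbene polyphenol) at 15 µM, and cells given both at these doses (Combination). Every group was collected at 24 h, and all 4 share the same line, so the values describe 1 line. EGCG was dissolved in water and the resveratrol stock in DMSO. Whether NT and EGCG cells received DMSO is not given in the sources used here, so resveratrol and its solvent cannot be told apart. The labels call the 6 libraries of a group replicates without saying that they came from separate cultures, so the p-values measure the spread between these samples.

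The integrated stress response starts when a kinase (PERK, GCN2, PKR or HRI) phosphorylates the initiation factor eIF2alpha. General translation then falls, while the mRNA of the transcription factor ATF4 is translated more, so that much of the control of ATF4 lies in translation and not in its transcript. ATF4 switches on genes of amino acid supply and further transcription factors, among them CHOP, the product of DDIT3, and the response is known in carcinoma cells under endoplasmic reticulum stress, amino acid shortage and mitochondrial stress. RNA-seq measures the transcripts alone, and neither ATF4 protein nor phosphorylated eIF2alpha was analysed here.

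The libraries held 7034872 to 11735574 counts. The 8 squamous epithelial markers were detected, with a summed FPKM (normalized counts per gene length) of 6380 to 6718 in NT and 6082 to 6867 in EGCG cells, against 5291 to 5573 in resveratrol cells and 5248 to 5740 in combination cells. The summed FPKM of the 6 fibroblast markers, most of it COL1A1, was 13.1 to 15.8, 10.7 to 13.2, 15.4 to 18.4 and 18.0 to 20.8 in the same order. The 6 leukocyte markers summed to at most 0.585 FPKM in any library, and the 4 endothelial markers to at most 0.245 FPKM. PECAM1 and CD3E were among the markers with no count in NT. The squamous sum was thus lower in the groups in which most axis genes were higher, largely through the keratins KRT5, KRT14, KRT6A and KRT17. COL1A1 was mostly higher there, and the part of these shifts in the axis results was not tested. Unlike the keratins, CDH1 was higher, with a mean of 66.9 FPKM in NT, 81.7 FPKM in resveratrol cells and 90.1 FPKM in combination cells. The means of TP63, EPCAM and SFN were also above NT in combination cells. In resveratrol cells SFN (912 FPKM against 979 FPKM in NT) and TP63 (52.1 against 53.7 FPKM) were below NT, and EPCAM (87.3 against 86.8 FPKM) was not. The mitochondrial share of counts was 0.249% to 0.326% for replicates 1 to 3 but 0.448% to 0.775% for replicates 4 to 6, so values within each set of 3 are given where they matter.

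ATF4, CHOP and their partners are basic leucine zipper proteins that bind short DNA elements, and the stretches before the start sites of 3 axis genes are shown because they hold such an element. The 250 bases before each RefSeq start were searched on both strands for TGATGNAA, the composite element of C/EBP and ATF factors, for TGACGTCA, the cAMP response element, which reads the same on both strands, and for the endoplasmic reticulum stress element. No axis gene held more than 1 of the 3 strings. All 10 axis genes had a RefSeq window, 18 windows in all. ATF3 had 2 of them, and the one starting at chr1:212614768 held none of the 3 strings. TGATGNAA occurred in 2 of these 18 windows and in 3.14% of the 35116 windows of all genes, TGACGTCA in 1 and in 1.65%, and the stress element in 0 and in 0.0740%. The start sites are those of RefSeq, and GENCODE exons reach into these windows: they cover 250 of the 250 bases of the CHAC1 window, 209 of PPP1R15A and 73 of ATF3, so that the CHAC1 and PPP1R15A stretches printed here lie inside the annotated gene. Each match is a description of the letters and no evidence that a factor was bound. On GRCh38.p14, plus strand, with the element in capitals, these stretches read as follows.
ATF3, chr1:212565157-212565333, the composite element starting 191 bases before the start: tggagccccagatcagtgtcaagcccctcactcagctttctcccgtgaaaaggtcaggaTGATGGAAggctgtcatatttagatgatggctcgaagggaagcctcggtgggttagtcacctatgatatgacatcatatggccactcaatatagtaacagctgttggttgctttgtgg
CHAC1, chr15:40953251-40953280, the composite element on the other strand, 209 bases before the start: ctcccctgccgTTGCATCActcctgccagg
PPP1R15A, chr19:48872352-48872381, the cAMP response element 58 bases before the start: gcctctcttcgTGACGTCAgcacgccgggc
ATF3 and CHAC1, the pair with the composite element, were also the axis genes with the largest differences after resveratrol. Any link between the element and these differences was not tested.

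In untreated cells the axis genes spanned a wide range of levels per gene length. ATF4 led with 244 ± 5.84 FPKM (mean ± SD, n = 6), followed by DDIT4 with 111 ± 3.61 FPKM and CEBPB with 86.5 ± 3.65 FPKM. TRIB3 (29.5 FPKM), CHAC1 (27.7 FPKM), PPP1R15A (24.3 FPKM) and DDIT3 (24.2 FPKM) lay close together, and the 6 libraries of each overlapped those of the next. SESN2 (16.9 FPKM), ATF5 (14.1 FPKM) and ATF3 (3.23 ± 0.132 FPKM) were lower, each apart from its neighbours in the order. With the combination ATF4, DDIT4 and CEBPB kept places 1 to 3 at 264, 139 and 116 FPKM, and CHAC1 (75.6 FPKM) stood above TRIB3 (60.5 FPKM), with no overlap between their libraries. ATF3 was lowest in every group, at 3.43 FPKM in EGCG cells, 8.40 FPKM in resveratrol cells and 11.2 FPKM in combination cells, where ATF5 stood just above it at 13.7 FPKM. When CPM was instead divided by the exon length of the reference annotation, TRIB3 changed places with CHAC1, and PPP1R15A with DDIT3, in NT.

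**Figure D1:**
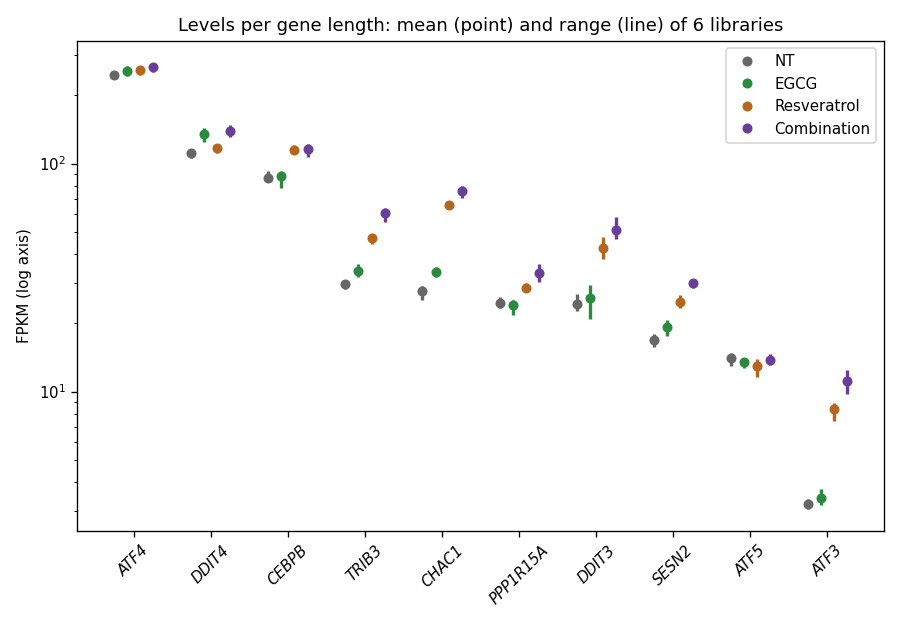
Level of each axis gene in FPKM on a log axis, ordered by the level in NT, with the point at the mean and the line over the range of the 6 libraries of each group. ATF4 sits highest and ATF3 lowest in all 4 groups, from 3.23 FPKM in NT to 11.2 FPKM with the combination for ATF3.

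ATF4 itself (ENSG00000128272, chromosome 22, 39519695 to 39522683, GRCh38, as for all positions of genes given here) differed little between the groups. Its normalized counts, in which 1 size factor corrects each library for depth, ran from 5234 to 5560 in NT (median 5319), 5329 to 5889 with EGCG (median 5614), 5367 to 5772 with resveratrol (median 5658) and 5544 to 6057 with the combination (median 5772). On this scale every treated group overlapped NT. The table also lists 4 processed copies of ATF4, of which ATF4P3 held a mean of 919 counts and ATF4P4 of 506 counts per library, and reads of such copies and of ATF4 are hard to tell apart. A sum of ATF4 and its copies, chosen after the files were seen, gave 6708 ± 143 normalized counts in NT, 6967 ± 263 in EGCG cells, 7072 ± 194 in resveratrol cells and 7250 ± 212 in combination cells (mean ± SD, n = 6). The copies made up 18.9% to 21.3% of that sum in every library.

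Among the transcription factors downstream of ATF4, DDIT3 and ATF3 showed the clearest steps. DDIT3 (ENSG00000175197, chromosome 12, 57516588 to 57521737) encodes CHOP, which promotes cell death under prolonged stress. Its normalized counts were 258 to 307 in NT (median 270), 238 to 335 with EGCG (median 299), 436 to 543 with resveratrol (median 481) and 531 to 665 with the combination (median 577). NT and EGCG overlapped, both lay below all 12 libraries with resveratrol, and the resveratrol and combination libraries overlapped in part. DDIT3 shares bases with exons of MARS1 and MBD6 on the opposite strand, with means of 4442 and 769 counts, and the strand setting of the counting is not given in the sources used here. Exons of DDIT3 also overlap those of ENSG00000285133, an annotated protein-coding gene on the same strand, which had 0 counts. Whether this overlap changed the DDIT3 counts was not tested. ATF3 (ENSG00000162772, chromosome 1, 212565334 to 212620777) is a stress-induced factor of the ATF and CREB family. It ran from 108 to 119 normalized counts in NT (median 114), 112 to 131 with EGCG (median 120), 263 to 315 with resveratrol (median 300) and 344 to 440 with the combination (median 398). The lowest combination library lay above the highest resveratrol library, and NT and EGCG overlapped.

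CEBPB (ENSG00000172216, chromosome 20, 50190830 to 50192668) encodes a C/EBP factor that pairs with ATF4 and CHOP. It had 1415 to 1580 normalized counts in NT (median 1458), 1334 to 1581 with EGCG (median 1545), 1888 to 2055 with resveratrol (median 1935) and 1828 to 2074 with the combination (median 2009). The libraries thus fell into a lower pair of groups without resveratrol and a higher pair with it. ATF5 (ENSG00000169136, chromosome 19, 49928702 to 49933935), a relative of ATF4 whose translation is also controlled by eIF2alpha phosphorylation, ran from 327 to 374 in NT (median 357), 319 to 356 with EGCG (median 343), 293 to 351 with resveratrol (median 328) and 331 to 370 with the combination (median 339). All 4 groups of ATF5 overlapped. Exons of ATF5 overlap those of NUP62 on the opposite strand, which had a mean of 1124 counts.

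The effectors of the axis act on signalling, glutathione, translation and growth. TRIB3 (ENSG00000101255, chromosome 20, 362835 to 397559) encodes a pseudokinase that restrains AKT and ATF4. Its normalized counts were 744 to 816 in NT (median 787), 840 to 959 with EGCG (median 889), 1175 to 1299 with resveratrol (median 1259) and 1465 to 1684 with the combination (median 1611), so that no group of 6 libraries overlapped another. CHAC1 (ENSG00000128965, chromosome 15, 40952962 to 40956512), a glutathione-degrading enzyme, formed the same ladder. It ran from 450 to 517 in NT (median 502), 570 to 630 with EGCG (median 606), 1138 to 1204 with resveratrol (median 1180) and 1262 to 1424 with the combination (median 1373). PPP1R15A (ENSG00000087074, chromosome 19, 48872212 to 48876059) encodes GADD34, which brings a phosphatase to eIF2alpha and so ends the response. It had 625 to 693 normalized counts in NT (median 640), 582 to 673 with EGCG (median 656), 743 to 802 with resveratrol (median 756) and 810 to 970 with the combination (median 896). NT and EGCG overlapped, and the other groups followed without overlap.

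DDIT4 and SESN2 both encode inhibitors of mTORC1, the kinase complex that drives growth. DDIT4 (ENSG00000168209, chromosome 10, 72273919 to 72276036, also called REDD1) took an order of its own: 1898 to 2069 normalized counts in NT (median 1993), 2230 to 2555 with EGCG (median 2449), 2002 to 2145 with resveratrol (median 2112) and 2343 to 2642 with the combination (median 2486). The 12 libraries with EGCG lay above the 12 without it. SESN2 (ENSG00000130766, chromosome 1, 28259518 to 28282491) ran from 472 to 538 in NT (median 520), 529 to 624 with EGCG (median 598), 703 to 798 with resveratrol (median 739) and 857 to 941 with the combination (median 905). Its NT and EGCG libraries overlapped at the edge, and the other 2 groups stood apart.

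**Figure D2:**
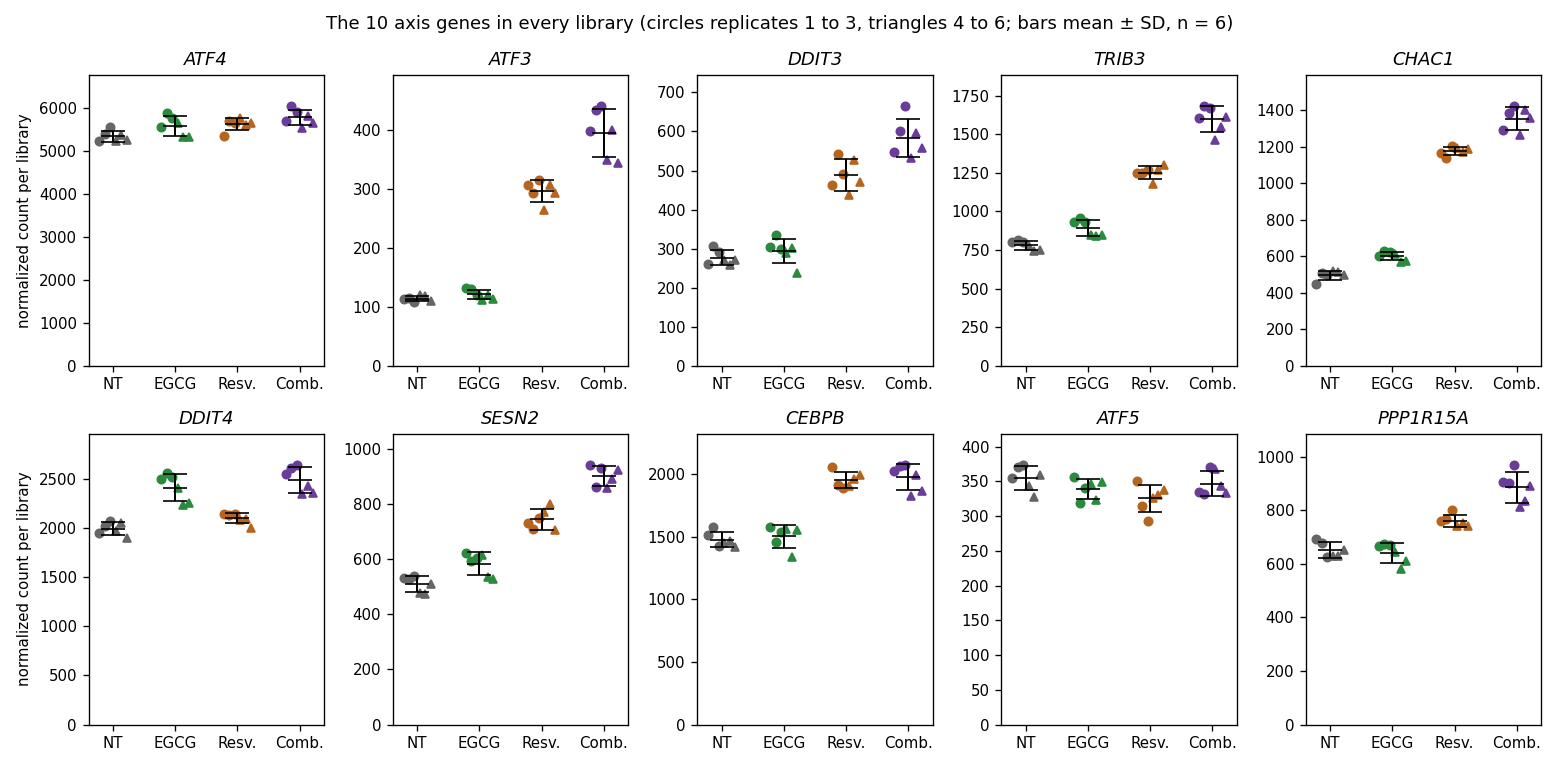
Normalized count of each axis gene in every library, with circles for replicates 1 to 3, triangles for replicates 4 to 6 and bars for the mean ± SD of 6 libraries; every vertical axis starts at 0. TRIB3 and CHAC1 step up from NT to EGCG, resveratrol and the combination without overlap, DDIT4 is high in the 2 groups with EGCG, and ATF4 and ATF5 stay nearly level.

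Resveratrol against NT asked what resveratrol did without EGCG, and its solvent could not be told apart from it. ATF3 rose most, to 2.61-fold of NT, followed by CHAC1 at 2.38-fold, DDIT3 at 1.78-fold and TRIB3 at 1.61-fold. SESN2 (1.46-fold), CEBPB (1.33-fold) and PPP1R15A (1.17-fold) rose less, while ATF4 and DDIT4 rose to 1.06-fold each and ATF5 fell to 0.918-fold. A gene was called when edgeR's quasi-likelihood test gave a Benjamini-Hochberg adjusted p under 0.1 and an unadjusted p under 0.05 over the 15476 genes tested, which included all 10 axis genes. By this rule 10 of the 10 were called, 9 higher and 1 lower, where 56.9% of all genes tested were called, 28.9% higher and 28% lower. At 1.5-fold or more 4 were called, all higher, against 9.78% of all genes in either direction. Log2 CPM corrects the counts for library size with TMM scaling (trimmed mean of M-values). On this scale the 6 libraries of each group did not overlap for 7 axis genes and for 31.1% of all genes. The log2 fold change of ATF3 was 1.38 ± 0.07 (SE, adjusted p = 9.83e-19) and lay at percentile 99.5 of all genes tested. That of CHAC1 was 1.25 ± 0.04 (adjusted p = 7.75e-25), that of DDIT3 0.83 ± 0.06 (adjusted p = 2.07e-13) and that of TRIB3 0.68 ± 0.04 (adjusted p = 4.75e-17). In replicates 1 to 3 and 4 to 6 taken alone, ATF3 gave 1.45 and 1.31, CHAC1 1.28 and 1.22, DDIT3 0.81 and 0.84, and TRIB3 0.65 and 0.72. In bulk RNA, more transcript per cell and more cells that express a gene cannot be told apart.

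The 3 smallest of these differences were not stable. ATF4 gave 0.08 ± 0.03 on the log2 scale (adjusted p = 0.0193), a call that was lost with every gene of at least 1 count in the fit (adjusted p = 0.108) and in replicates 1 to 3 alone. The sum of ATF4 and its copies differed from NT by 0.08 (two-sided exact permutation test, p = 0.00649, where the smallest possible is 0.00216). DDIT4 gave 0.08 ± 0.04 (adjusted p = 0.059), and its call was lost at an adjusted p under 0.05, with every gene of at least 1 count in the fit, in replicates 4 to 6 alone, and without NT replicate 1, 4 or 6 and without resveratrol replicate 1, 2 or 3, with adjusted p of up to 0.132. ATF5 gave -0.12 ± 0.05 (adjusted p = 0.0313) and was no longer called when libraries were scaled by their size alone (-0.04), in replicates 4 to 6 alone (-0.05) or without resveratrol replicate 3 (-0.09). With scaling by library size alone, 68.3% of all genes called were higher with resveratrol, against 50.7% with TMM scaling, and the median of all genes moved from 0.00 to 0.09.

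Combination against NT came next, and every axis gene but ATF5 had its highest mean normalized count in combination cells. ATF3 reached 3.47-fold of NT, CHAC1 2.74-fold, DDIT3 2.12-fold, TRIB3 2.05-fold and SESN2 1.77-fold. PPP1R15A (1.36-fold), CEBPB (1.34-fold), DDIT4 (1.25-fold) and ATF4 (1.08-fold) were also higher, and ATF5 was at 0.981-fold with an adjusted p of 0.643. Of the 10 axis genes 9 were called, all of them higher, where 59.8% of all genes were called and 29.9% were called higher. At 1.5-fold or more 5 axis genes were called, all higher, and 11.9% of all genes in either direction. The 6 libraries did not overlap for 9 axis genes and for 31.9% of all genes. The log2 fold changes were 1.80 ± 0.07 for ATF3 (SE, adjusted p = 1.19e-22), 1.45 ± 0.04 for CHAC1 (adjusted p = 5.42e-27), 1.08 ± 0.06 for DDIT3 (adjusted p = 6.92e-17), 1.04 ± 0.04 for TRIB3 (adjusted p = 1.33e-22) and 0.82 ± 0.04 for SESN2 (adjusted p = 7.17e-18). ATF4 gave 0.12 ± 0.03 (adjusted p = 0.000574), at percentile 63.9 of all genes tested. Its libraries did not overlap NT on log2 CPM but did on the authors' normalized counts, where the lowest combination library (5544) lay just under the highest of NT (5560). The sum of ATF4 and its copies differed by 0.11 on the log2 scale (two-sided exact permutation test, p = 0.00433).

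Per 100 normalized counts of ATF4 in the same library, most but not all downstream transcripts stood higher in both resveratrol groups. DDIT3 had a median of 5.15 per 100 in NT, 5.29 in EGCG cells, 8.66 in resveratrol cells and 9.87 in combination cells. CHAC1 had 9.41, 10.8, 21.0 and 23.4 in the same order, and ATF3 had 2.14, 2.16, 5.33 and 6.89. DDIT4 had 37.3, 42.9, 37.3 and 42.7, and ATF5, lower in the treated groups, had 6.75, 6.09, 5.77 and 5.89. These ratios are not scaled by length and compare groups, not genes.

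**Figure D3:**
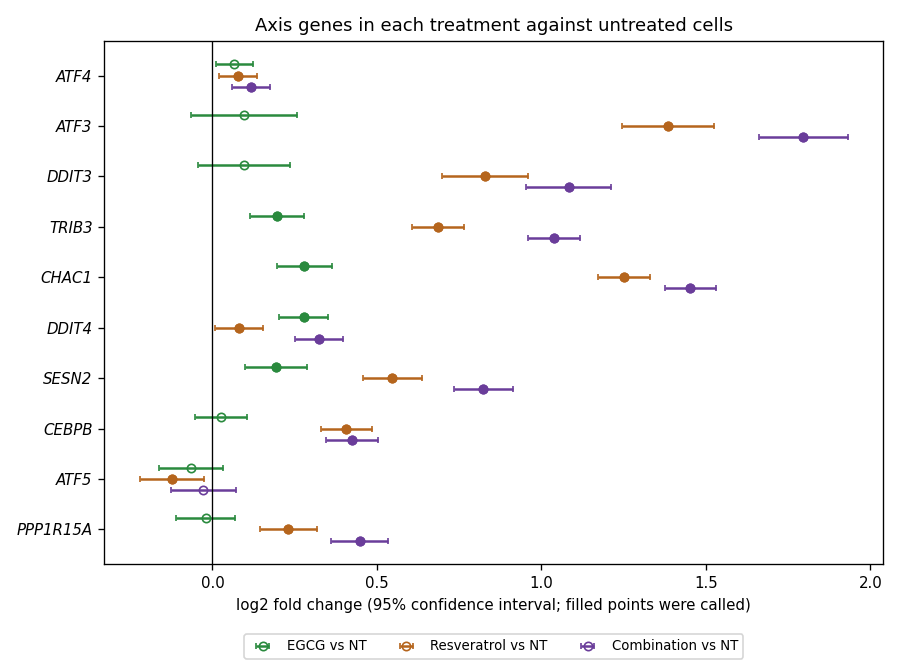
Log2 fold change of each axis gene against NT (horizontal axis) with its 95% confidence interval, filled where called, for EGCG, resveratrol and the combination. For ATF3 the points stand at 0.10, 1.38 and 1.80, while for ATF4 they stand between 0.07 and 0.12 and for DDIT4 the EGCG point (0.28) lies to the right of the resveratrol point (0.08).

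EGCG against NT asked what the catechin did alone. The 4 genes that rose were effectors: CHAC1 and DDIT4 to 1.21-fold each, TRIB3 to 1.15-fold and SESN2 to 1.14-fold. None of the transcription factors passed the test, with ATF3 and DDIT3 at 1.07-fold, ATF4 at 1.05-fold, CEBPB at 1.02-fold and ATF5 at 0.955-fold, nor did PPP1R15A at 0.985-fold. Of all genes tested 1.76% were called and 0.905% were called higher, against 4 of 10 axis genes. At 1.5-fold or more 0 axis genes were called by edgeR and by DESeq2, and 0.181% of all genes. An unadjusted p under 0.05 was found for 5 axis genes and for 1570 of all 15476 genes tested. The libraries did not overlap for TRIB3, CHAC1 and DDIT4, and for 1.63% of all genes. The log2 fold changes were 0.28 ± 0.04 for CHAC1 (SE, adjusted p = 2.98e-05), 0.28 ± 0.04 for DDIT4 (adjusted p = 3.32e-06), 0.20 ± 0.04 for TRIB3 (adjusted p = 0.00431) and 0.19 ± 0.05 for SESN2 (adjusted p = 0.0203). The 95% intervals of the genes not called reached 0.26 for ATF3, 0.24 for DDIT3 and 0.12 for ATF4, so that EGCG differences of up to these sizes were not excluded by the spread. The sum of ATF4 and its copies differed from NT by 0.05 on the log2 scale (two-sided exact permutation test, p = 0.0584).

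Within replicates 1 to 3 the EGCG difference was 0.36 for CHAC1, 0.33 for DDIT4, 0.23 for TRIB3 and 0.19 for SESN2, and within replicates 4 to 6 it was 0.20, 0.22, 0.16 and 0.19. DDIT4 was called in both sets. CHAC1 and TRIB3 were called in replicates 1 to 3 and not in replicates 4 to 6 (adjusted p = 0.152 and 0.266), and SESN2 in neither (adjusted p = 0.223 and 0.337). All 4 calls held when any 1 of the 24 libraries was left out.

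Combination against resveratrol asked what EGCG did beside resveratrol. ATF3 rose to 1.33-fold of resveratrol alone, TRIB3 to 1.28-fold, SESN2 to 1.21-fold, DDIT3 to 1.19-fold, DDIT4 to 1.18-fold, PPP1R15A to 1.16-fold and CHAC1 to 1.15-fold. CEBPB stood at 1.01-fold, ATF4 at 1.03-fold and ATF5 at 1.07-fold, and these 3 did not pass the test (adjusted p = 0.875, 0.508 and 0.302). Thus 7 of 10 axis genes were called, all higher, against 7.86% of all genes called and 4.01% called higher. At 1.5-fold or more 0 axis genes were called by edgeR and by DESeq2, and 0.452% of all genes. The libraries did not overlap for 6 axis genes and for 3.19% of all genes, with DDIT3 the called gene whose libraries overlapped. The log2 differences were 0.41 ± 0.06 for ATF3 (SE, adjusted p = 6.44e-06), 0.35 ± 0.04 for TRIB3 (adjusted p = 2.84e-08), 0.25 ± 0.06 for DDIT3 (adjusted p = 0.006) and 0.22 ± 0.04 for PPP1R15A (adjusted p = 0.000856). The 7 calls held in replicates 1 to 3, where ATF3 gave 0.48 and TRIB3 0.40, and in replicates 4 to 6, where they gave 0.34 and 0.31.

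The interaction tested whether the EGCG difference beside resveratrol differed from the EGCG difference alone. By edgeR 0 of 10 axis genes were called, where 0.265% of all genes were, and DESeq2 called 1, PPP1R15A. An unadjusted p under 0.05 was found for 4 axis genes and for 1195 of all 15476 genes tested. For PPP1R15A the EGCG difference was -0.02 without and 0.22 with resveratrol, and the interaction was 0.24 ± 0.06 on the log2 scale (edgeR adjusted p = 0.111, DESeq2 adjusted p = 0.0484). It was also called with every gene of at least 1 count in the fit, with genes of at least 10 counts in every library, with the set of replicates as a term, and without NT replicate 5, EGCG replicate 1 or 2, resveratrol replicate 3, or combination replicate 4 or 5. Leaving out 1 library moved its adjusted p between 0.0450 and 0.246. ATF3 had an interaction of 0.31 ± 0.10 (adjusted p = 0.291), TRIB3 of 0.16 ± 0.05 (adjusted p = 0.406) and ATF5 of 0.16 ± 0.07 (adjusted p = 0.555). The interaction of CHAC1 was -0.08 (95% interval -0.19 to 0.03) and that of DDIT4 -0.03 (95% interval -0.14 to 0.07), and both intervals held 0.

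**Figure D4:**
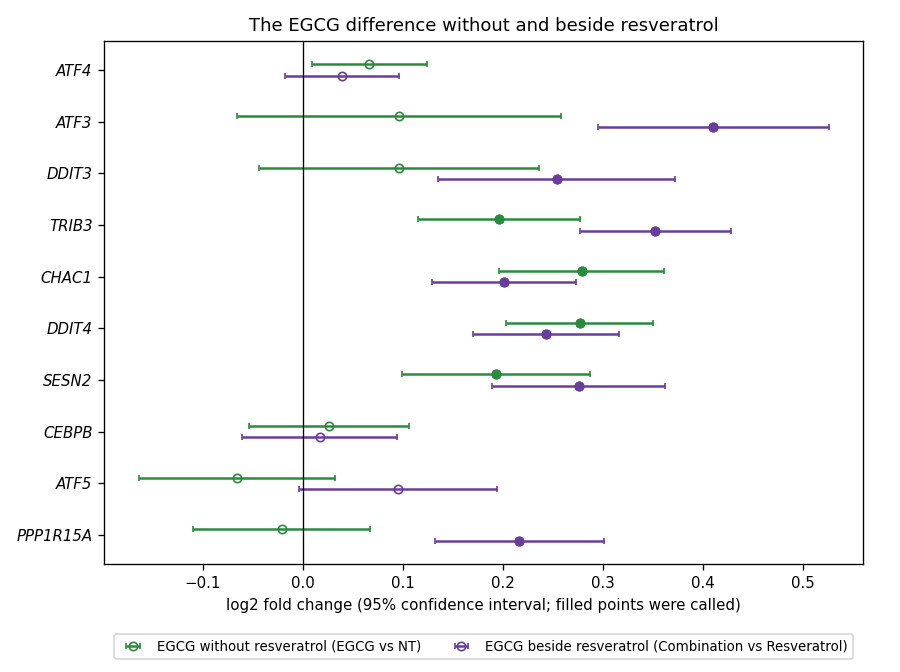
Log2 fold change made by EGCG without resveratrol (EGCG against NT, green) and beside it (Combination against Resveratrol, purple), with 95% confidence intervals and filled points where called. The 2 intervals of PPP1R15A (at -0.02 and 0.22) and those of ATF3 (at 0.10 and 0.41) do not overlap, those of TRIB3 nearly touch, and those of CHAC1, DDIT4, CEBPB and ATF4 overlap.

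Combination against EGCG called 7 axis genes, all higher, against 57.8% of all genes called and 28.7% called higher. At 1.5-fold or more 5 were called, against 9.99% of all genes, and the libraries did not overlap for 7 axis genes and for 27.5% of all genes. ATF3 stood at 3.25-fold, CHAC1 at 2.26-fold, DDIT3 at 1.98-fold, TRIB3 at 1.79-fold and SESN2 at 1.55-fold. DDIT4 differed by 0.05 ± 0.04 on the log2 scale (adjusted p = 0.276) and ATF4 by 0.05 ± 0.03 (adjusted p = 0.131). Both were called when libraries were scaled by size alone (0.12 and 0.13), with genes of at least 10 counts in every library (0.07 and 0.08) and without EGCG replicate 1 or 2, and ATF4 also without NT replicate 5, EGCG replicate 4 or 6, or combination replicate 4. Resveratrol against EGCG, at their doses of 15 µM and 40 µM, called 8 axis genes, 7 higher and 1 lower, against 55% of all genes, 27.7% higher and 27.3% lower. At 1.5-fold or more 3 were called, against 8.81% of all genes. DDIT4 was the gene lower with resveratrol, at 0.873-fold (log2 -0.20 ± 0.04, adjusted p = 2.28e-05), with no overlap between the 6 libraries of each group. The 8 called genes were also the 8 whose libraries did not overlap, against 27.3% of all genes. ATF3 stood at 2.44-fold and CHAC1 at 1.96-fold in the other direction. All these comparisons share libraries with one another and are not independent.

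The wider pathway was read through 5 lists set by textbook roles, each by its counts and median. Over all genes tested the medians were 0.00 in the 3 comparisons with NT, and the shares called are repeated beside the counts. Upstream of ATF4, the 17 eIF2alpha kinases, eIF2 and eIF2B subunits and their regulators had a median log2 fold change of -0.05 with the combination, where 3 were called higher and 6 lower, beside 59.8% of all genes called. EIF2AK3, which encodes the kinase PERK, was higher by 0.43 ± 0.06 (SE, adjusted p = 2.18e-07), and EIF2AK1, which encodes HRI, by 0.13 ± 0.03. EIF2S3 (the gamma subunit of eIF2) fell by 0.71 and EIF2A, an alternative initiation factor, fell by 0.54 on the log2 scale. With resveratrol alone 5 were called higher and 8 lower, with a median of -0.06, beside 56.9% of all genes called. With EGCG edgeR called 0 of the 17 and DESeq2 called 1, beside 1.76% of all genes called by edgeR. An unadjusted p under 0.05 was found for 2 of the 17 and for 1570 of all 15476 genes tested.

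Of the 38 other target genes of ATF4 and CHOP, 30 were called higher and 3 lower with the combination, where 29.9% of all genes were called in each direction. Their median log2 fold change was 0.40, beside 0.64 for the 10 axis genes and 0.00 for all genes. GDF15, a secreted stress cytokine, was higher by 2.63 ± 0.13 (SE, adjusted p = 6.73e-19) and NUPR1, a stress-response regulator, by 2.40 ± 0.15 (adjusted p = 2.22e-16). FGF21, a secreted metabolic hormone, was higher by 1.67 ± 0.20 and INHBE, an activin subunit, by 1.56 ± 0.05. The 3 that were lower were SLC7A5 (-0.54 ± 0.03) and SLC3A2 (-0.35 ± 0.03), which together form an amino acid exchanger at the cell surface, and the tRNA exporter XPOT (-0.24), named after its value was seen. With resveratrol 28 were called higher and 4 lower (median 0.31), beside 28.9% and 28% of all genes. With EGCG 10 were called higher and 1 lower (median 0.07), beside 1.76% of all genes in either direction, the lower one being SLC7A5 (-0.12). The lowest value of the list with EGCG was -0.90, in a member that was not called. Between the combination and resveratrol 13 were called higher and 1 lower, again XPOT (-0.14), with a median of 0.09, beside 7.86% of all genes called. GDF15 (0.39) and NUPR1 (0.40) were among the higher ones, while INHBE (0.11, adjusted p = 0.172) and FGF21 (0.09, adjusted p = 0.839) were not called.

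The relatives of the axis genes were called in both directions. Of the 18 of 20 paralogs that could be tested, 8 were called higher and 7 lower with the combination (median 0.12), beside 29.9% of all genes in each direction. With resveratrol 8 were called higher and 7 lower (median 0.06), beside 28.9% and 28% of all genes. Beside ATF3, JDP2 was higher by 0.61 ± 0.04 with the combination. Beside CHAC1, CHAC2 was at -0.30 ± 0.08, and beside TRIB3, TRIB1 was at -0.12 ± 0.04 while TRIB2 was at 0.14 ± 0.12 (not called). SESN1 (0.37 ± 0.13) and SESN3 (0.55 ± 0.06) were higher, as SESN2 was. Beside CEBPB, CEBPA was at 0.76 ± 0.11, CEBPG at 0.26 ± 0.04 and CEBPD at -0.22 ± 0.09, and PPP1R15B, the constitutive relative of PPP1R15A, was at 0.14 ± 0.04. With EGCG edgeR called 1 paralog, JDP2 (0.19 ± 0.04, adjusted p = 0.00215), and DESeq2 called 2, beside 1.76% of all genes called by edgeR. Between the combination and resveratrol edgeR and DESeq2 each called 0 paralogs, beside 7.86% of all genes called by edgeR. Here 3 of the 18 had an unadjusted p under 0.05, as did 2811 of all 15476 genes tested.

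The other arms of the unfolded protein response, led by ATF6 and XBP1, held genes called in both directions, as all genes tested did. Of 20 genes 11 were called higher and 4 lower with the combination (median 0.16), beside 29.9% of all genes in each direction. With resveratrol 10 were called higher and 6 lower (median 0.07), beside 28.9% and 28% of all genes. DNAJB9, a chaperone cofactor of the endoplasmic reticulum, was higher by 1.05 ± 0.11, HERPUD1, of the degradation machinery, by 0.68 ± 0.04, ERN1, which encodes the sensor IRE1, by 0.65 ± 0.08 and EDEM1 by 0.62 ± 0.05. The chaperone HSP90B1 was lower (-0.29 ± 0.03), as was SDF2L1 (-0.21 ± 0.06). With EGCG 2 were called, both higher, beside 1.76% of all genes: HERPUD1 (0.15 ± 0.04) and XBP1 (0.14), the latter named after its value was seen. Between the combination and resveratrol 6 were called, all higher (median 0.07), beside 4.01% of all genes called higher.

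Of 19 testable basic leucine zipper genes whose products can pair with ATF4 or CHOP, 13 were called higher and 2 lower with the combination (median 0.15), beside 29.9% of all genes in each direction. With resveratrol 11 were called higher and 3 lower (median 0.13), beside 28.9% and 28% of all genes. The AP-1 genes FOS (1.05 ± 0.18) and JUND (1.03 ± 0.04) and the repressor NFIL3 (0.79 ± 0.06) were higher with the combination, while FOSL1 (-0.68 ± 0.04) and FOSB (-0.37 ± 0.14) were lower. Between the combination and resveratrol 6 were called, all higher, FOSL1 among them (0.14 ± 0.04), beside 4.01% of all genes called higher. With EGCG edgeR called 1, MAFF (0.25), named after its value was seen, beside 1.76% of all genes, while DESeq2 called 0. An unadjusted p under 0.05 was found for 4 of the 19, and for 1570 of all 15476 genes tested.

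**Figure D5:**
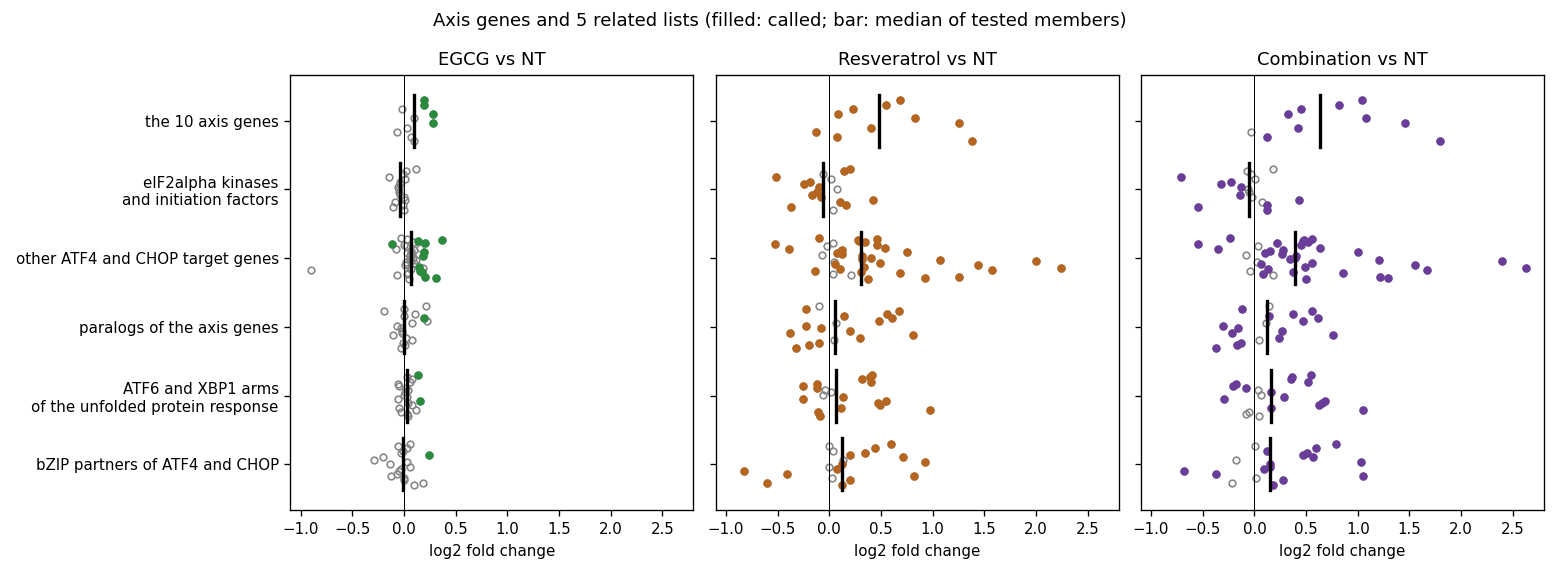
Log2 fold change against NT (horizontal axis) of the tested members of the axis and of the 5 related lists (rows), for EGCG, resveratrol and the combination, filled where called, with a bar at the median of each list. With the combination the medians are 0.64 for the axis, 0.40 for the other targets and between -0.05 and 0.16 for the rest.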

How the data were processed

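Stranded mRNA libraries were sequenced as paired reads. The authors used Trimmomatic 0.36 for trimming and HISAT2 2.0.4 with GRCh38 for alignment (versions from the submitters' processing notes), and deposited raw counts, normalized counts (a signal per gene) and FPKM for each gene and library. The counting program, annotation release and strand setting are not given in the sources used here. The authors' normalized counts, checked against DESeq2's median-of-ratios size factors, matched them in 24 of 24 libraries, and the deposited FPKM are these values divided by gene length. Raw counts entered every fit, normalized counts give levels per library, and FPKM compares genes.

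An edgeR 4.0.16 model (R 4.3.3) held all 24 libraries (TMM, filterByExpr, quasi-likelihood test, contrasts of 4 group means). The common biological coefficient of variation was 5.32%. Sums of counts were tested by exact permutation. DESeq2 1.42.0, other scalings, filters and thresholds, only the groups compared, replicate sets, a replicate block and each library left out were alternatives. The steps were tested on simulated data. Gene positions and exon lengths came from GENCODE on GRCh38, and start sites and sequences from RefSeq on GRCh38.p14.

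The axis genes, lists, named-gene rule and tests were chosen with earlier results of these data known. The rule names the 10 axis genes, from each list up to 4 members called with the largest change with the combination and up to 2 called the opposite way, any paralog, and the 3 genes closest in pattern to ATF4 and to DDIT3.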

Additional observations from a re-analysis of the deposited data

Results flagged for a closer look

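CHAC1 in NT replicate 1 stood below the other 5 NT libraries. It had 450 normalized counts, where the median of the group was 502, and on the log2 scale its gap to the next library was 0.682 of the whole range of the group, above the 95% limit of Dixon's test for 6 samples. This was 1 of 40 sets of 6 libraries looked at (10 genes in 4 groups), and chance alone marks about 5% of such sets. CHAC1 kept its calls against NT in all 3 treatments when this library was left out.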

How the results depend on the processing

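Of 2440 values of axis genes under the alternatives, 2378 kept their direction and their side of the threshold, 18 lost a call, 26 gained one and 18 changed sign, the last group made up of values that were called neither way. With replicates 1 to 3 alone, PPP1R15A gave 0.015 for EGCG against NT, ATF4 -0.039 for resveratrol against EGCG and CEBPB 0.051 for the interaction. With replicates 4 to 6 alone, ATF3 gave -0.0015 for EGCG against NT, CEBPB -0.043 for the combination against resveratrol and ATF5 0.021 for the combination against NT. With scaling by library size alone, ATF5 gave 0.055 for the combination against NT and 0.023 for resveratrol against EGCG. With 1 library left out, PPP1R15A ranged from -0.035 to 0.0088 (EGCG against NT), ATF4 from -0.0027 to 0.044 (resveratrol against EGCG) and CEBPB from -0.043 to 0.012 (interaction).

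For EGCG against NT, 273 genes were called in all, and 84 and 85 in replicates 1 to 3 and 4 to 6 alone (fewer samples), where the count of axis genes in replicates 4 to 6 was 1. For the combination against resveratrol, 1217 genes became 803 at an adjusted p under 0.05 and 399 in replicates 4 to 6. For the interaction, 41 genes became 68 with DESeq2, 92 with every gene of at least 1 count, 79 with the set of replicates as a term, and 6 and 24 in replicates 1 to 3 and 4 to 6. The count of axis genes was 1 instead of 0 with DESeq2, with both other filters and with the set as a term, and 0 to 1 with 1 library left out. The order of levels in NT moved for 4 genes when CPM per exon length replaced FPKM. Library size alone moved the share of called genes that were higher from 50.04% to 64.6% (combination against NT), from 49.6% to 63.8% (combination against EGCG), from 50.4% to 67.9% (resveratrol against EGCG) and from 78.0% to 66.7% (interaction). Fitting only the groups compared gave no value for the interaction, which needs all 4. The cause was not tested where none is given.

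The replicate numbers are shared by the groups in the labels. The deviations of same-numbered libraries correlated with a median of 0.0488 (-0.0111 to 0.131), 2 of 36 pairs were over 0.1, and 11 of 24 libraries correlated best with their own number. Pairs of other numbers within the same set of 3 had a median of 0.0276, with 4 of 72 over 0.1, and pairs across the sets of -0.0406. The deviations were taken from group means, so values above and below 0 are in part built in. The labels do not say that same-numbered libraries were handled together, and these correlations do not settle it. The main fit held no pairing. With the number as a replicate block, the interaction called 85 genes, 1 of them an axis gene (PPP1R15A, 0.24), and ATF4 was called for the combination against EGCG (0.05). The depth of 7034872 counts or more left each axis gene at least 87 counts in every library.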

Other observations

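The tested genes outside the axis whose 3 differences from NT lay closest to those of ATF4 were FAM32A, PET100 and DGCR2, with a root mean square difference of 0.0049, 0.0064 and 0.0078 on the log2 scale over the 3 treatments. Those closest to DDIT3 were NATD1 (0.033), EPAS1 (0.037) and NCAM2 (0.039). EPAS1, which encodes a hypoxia-inducible factor subunit, stood at 0.16 in EGCG cells, 0.82 in resveratrol cells and 1.07 in combination cells.

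The processed copies ATF4P3 and ATF4P4 had differences of 0.10 and 0.10 from NT with the combination (edgeR adjusted p = 0.0191 and 0.0486), close to the 0.12 of ATF4. With resveratrol they stood at 0.09 and 0.07, and with EGCG at -0.02 and 0.07.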
